A study of Mus musculus with 6 samples.

Results

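Transcripts of 10 genes that carry glucose into the cell, start and end glycolysis and move lactate across the membrane were measured in mouse retinal pigment epithelium (RPE): Slc2a1, Hk1, Hk2, Pkm, Ldha, Ldhb, Slc16a1, Slc16a3, Slc16a8 and Bsg. The genes were taken by symbol from a table of 54532 genes. All 10 were among the 17340 genes with enough reads to be tested. RNA was sequenced in bulk from 3 Abca4-/- mice (Abca4KO, the Jackson Labs line Abca4tm1Ght/J) and 3 wild-type mice (WT, strain 129S1/SvlmJ from the same supplier). The mice of both groups carried the Leu450 form of Rpe65, were kept on a standard diet in 12-h cyclic light, and were sampled 5 h after light onset. Line and genotype change together, so their effects cannot be told apart. Age, sex and the way the RPE was separated from its neighbours are not given in the sources used here.

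The RPE is a single pigmented cell layer between the choroidal blood supply and the photoreceptors. Glucose for the photoreceptors crosses it through GLUT1, the product of Slc2a1, which sits on both faces of the cell. Photoreceptors turn much of that glucose into lactate, which the RPE takes up at its retinal face through MCT1 (Slc16a1), can oxidise after conversion to pyruvate, and passes to the choroid through MCT3 (Slc16a8). Basigin, the product of Bsg, is the partner protein that brings these lactate carriers to the cell surface. Hexokinases trap glucose as glucose-6-phosphate, pyruvate kinase makes pyruvate, and lactate dehydrogenase converts pyruvate and lactate into each other.

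The 3 Abca4KO libraries held 19410214, 19841307 and 17047286 counts, and the 3 WT libraries 19064167, 19075335 and 18146027 counts. Values below are CPM, counts scaled to a common library size, or, where genes are set against each other, RPKM, the same divided by gene length. The floor of 3 counts stood at 0.152 to 0.174 CPM, and each of the 10 genes lay well above the counting floor. Abca4 itself, the disrupted transporter gene, fell 26.3-fold, with 32.6, 39.1 and 36.8 CPM in Abca4KO against 955, 932 and 968 CPM in WT (log2 fold change -4.72, SE 0.10, adjusted p = 4.48e-06, edgeR's quasi-likelihood test), so every library matched its label. RPE markers averaged between 9.94 and 9.97 log2 CPM in Abca4KO and between 9.73 and 9.99 in WT, with all 12 detected and Best1 the lowest at 6.02 CPM. Markers of other cell types were present too. The 14 rod markers summed to between 1099 and 3599 CPM in Abca4KO, highest in Abca4KO 1, and to between 728 and 1902 CPM in WT, lowest in WT 2. Of these 14, 13 had a positive log2 fold change (median 0.43), as had 6 of the 7 cone markers (median 0.46). The 10 endothelial markers summed to between 533 and 828 CPM in Abca4KO and between 326 and 546 CPM in WT, and all 10 were on average higher in Abca4KO (median log2 fold change 0.60). The 8 fibroblast and sclera markers summed to between 1716 and 2149 CPM in Abca4KO and between 1408 and 1684 CPM in WT. Of the 9 Muller glia and astrocyte markers, only 1 was on average higher in Abca4KO (median log2 fold change -0.27). They summed to between 10016 and 12166 CPM in Abca4KO and between 10193 and 11468 CPM in WT. Most of this sum came from Apoe, with means of 5561 CPM in Abca4KO and 4848 CPM in WT, and Rlbp1, with 2898 and 3203 CPM. Rlbp1 is also on the RPE list. Aqp4 averaged only 9.45 CPM in Abca4KO and 11.4 CPM in WT, and Kcnj10 21.6 and 30.9 CPM. The sum is therefore no measure of the share of glia. None of the tested markers in the 10 lists passed the adjusted threshold. In bulk RNA, fewer cells of a type and less RNA per cell cannot be told apart.

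The letters upstream of 3 of these genes are shown because hypoxia-inducible factor is known to control Slc2a1 and Ldha, while Slc16a8 is the carrier that is typical of the RPE. RefSeq promoter windows (GRCm38.p6) were matched by symbol for 9 of the 10 genes, and the bases before the annotated start were kept where they lay in no exon. Capitals mark the core letters ACGTG or GCGTG of the hypoxia response element on either strand, read as CACGT or CACGC where the core is on the other strand, and 2 overlapping cores appear as CACGTG. The windows are chr4:119108495-119108710 (plus strand, Slc2a1), chr7:46845554-46845803 (plus strand, Ldha) and chr15:79254762-79254998 (minus strand, Slc16a8), each printed 5′ to 3′ on the strand of its gene.
Slc2a1: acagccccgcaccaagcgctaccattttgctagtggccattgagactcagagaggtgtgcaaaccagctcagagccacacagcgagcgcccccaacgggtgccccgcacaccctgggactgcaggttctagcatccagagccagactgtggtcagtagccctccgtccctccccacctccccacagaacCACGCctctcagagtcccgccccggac
Ldha: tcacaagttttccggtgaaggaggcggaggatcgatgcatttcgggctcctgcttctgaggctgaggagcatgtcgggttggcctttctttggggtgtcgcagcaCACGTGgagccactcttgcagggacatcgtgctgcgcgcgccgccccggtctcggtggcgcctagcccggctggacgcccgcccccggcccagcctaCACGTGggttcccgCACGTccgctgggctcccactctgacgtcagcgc
Slc16a8: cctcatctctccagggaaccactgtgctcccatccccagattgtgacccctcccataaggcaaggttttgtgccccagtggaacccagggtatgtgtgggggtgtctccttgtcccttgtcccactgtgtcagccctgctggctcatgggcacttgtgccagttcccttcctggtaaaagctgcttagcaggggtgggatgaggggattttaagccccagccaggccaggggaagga
The Slc2a1 letters show 1 core, the Ldha letters 5 cores counted on both strands, of which 2 CACGTG runs hold a core on each strand, and the Slc16a8 letters none. Ldha has a second window, chr7:46846832-46847081, which is not printed and holds 1 core. Both Ldha windows lie inside the gene bounds of the deposited table. Over the whole 250 bases upstream, at least 1 core stood in 9 of the 12 windows of these genes, which belong to 8 of the 9 genes with a window. The share over all 32851 RefSeq windows of that length was 38.6%, with 16.6% holding ACGTG, 28.2% holding GCGTG and 6.02% holding CACGTG. A match is only a run of letters and says nothing of binding in these cells.

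None of the 10 genes passed the adjusted threshold of 0.05 in Abca4KO against WT, where 0.0461% of all tested genes (8 of 17340) did, 0.0346% on the higher and 0.0115% on the lower side. By DESeq2 and by limma-voom the count was also 0 of 10. At an unadjusted p under 0.05, edgeR called 1 of the 10, Slc2a1, against 7.02% of all tested genes. Libraries of the genotypes did not overlap for 2 of the 10, Slc2a1 and Ldha, both higher in Abca4KO, while 12.8% of all tested genes showed no overlap in one direction or the other and 5.93% had every Abca4KO library above WT. The log2 fold changes were positive for 7 genes and negative for 3, with a median of 0.04 against -0.01 over all tested genes. Their size was small, with a median absolute log2 fold change of 0.05 beside 0.15 over all tested genes. The spread between libraries of one genotype was small as well, with a median SD of 0.11 on the log2 scale beside 0.22, and 8 of the 10 genes lay below that value. The other 2, Hk2 and Slc16a3, were the least abundant, with SDs of 0.25 and 0.51. Without the libraries with the highest and the lowest rod markers, Abca4KO 1 and WT 2, 190 of all genes passed and still none of the 10. In that fit, 3 of the 10 log2 fold changes were positive: Slc2a1 was at 0.22, Ldha at 0.18 and Slc16a3 at 0.38, while Ldhb, Slc16a1, Slc16a8 and Bsg, each within 0.06 of 0, turned negative.

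**Figure D1:**
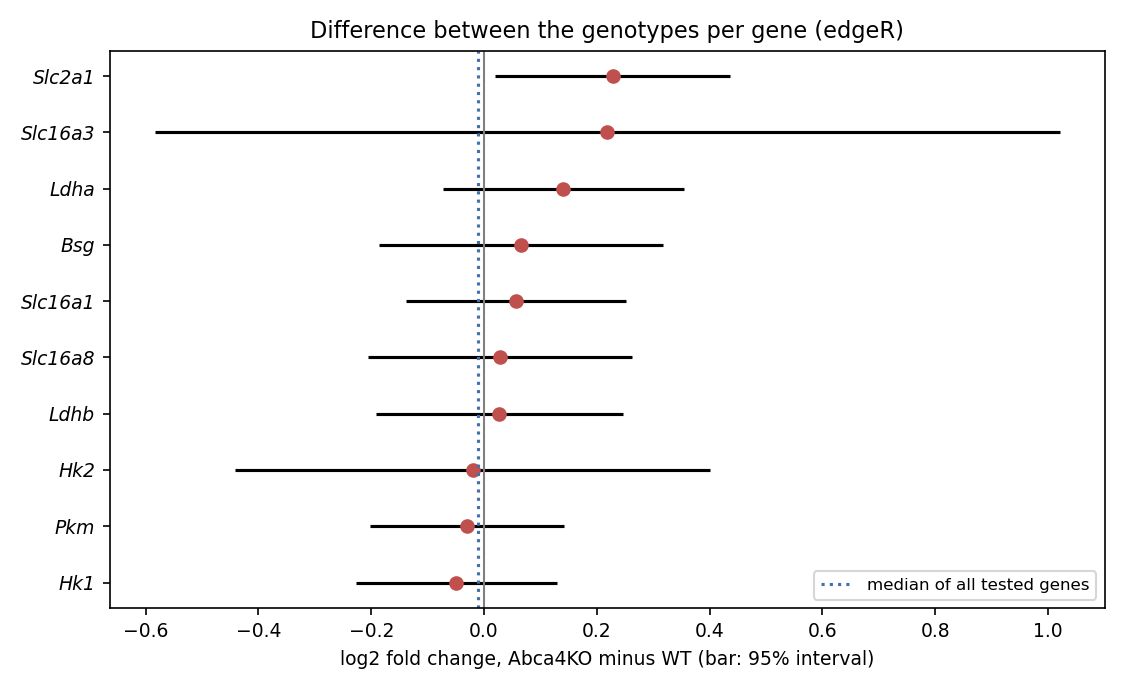
Log2 fold change of each of the 10 genes in Abca4KO against WT (horizontal axis, Abca4KO minus WT), with points for edgeR's estimate and bars for its 95% interval (n = 3 libraries each). The interval of Slc2a1 runs from 0.02 to 0.44 and leaves 0 out before adjustment, that of Slc16a3 is the widest, from -0.58 to 1.02, and none of the 10 genes passed the adjusted threshold.

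Basigin, the lactate carriers Slc16a8 and Slc16a1 and the glucose transporter Slc2a1 had the highest levels, while the carrier Slc16a3 had the lowest of the 10. Per length and over all 6 libraries, Bsg averaged 1684 ± 131.4 RPKM (SD over both genotypes, n = 6) and ranked 21 of the 17340 tested genes. Slc16a8 followed at 777.7 RPKM (rank 31), Slc2a1 at 405.4 RPKM (rank 61) and Slc16a1 at 313.2 RPKM (rank 78). Of the enzymes, Ldhb reached 263.1 RPKM (rank 103), Pkm 119.1 RPKM (rank 306), Ldha 52.4 RPKM (rank 820) and Hk1 24.5 RPKM (rank 1955). Hk2 at 3.29 RPKM and Slc16a3 at 1.40 RPKM came last, at ranks 9560 and 12574. For every pair of neighbours in this order the ranges over the 6 libraries did not overlap, the closest pair being Slc16a1 and Ldhb, whose mean levels differed 1.19-fold. Levels per length rest on the gene length given in the deposited table. With the longest GENCODE M21 transcript of each gene as its length, a choice made after seeing the data, Ldhb averaged 316.8 and Slc16a1 313.2 RPKM, with overlapping ranges and Ldhb first. Pkm, Ldha and Hk1 then averaged 244.9, 95.6 and 48.9 RPKM, and apart from Ldhb and Slc16a1 the order of the 10 genes was the same. The 10 genes together took 9242, 8780 and 9818 CPM in Abca4KO and 9137, 8204 and 9124 CPM in WT.

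**Figure D2:**
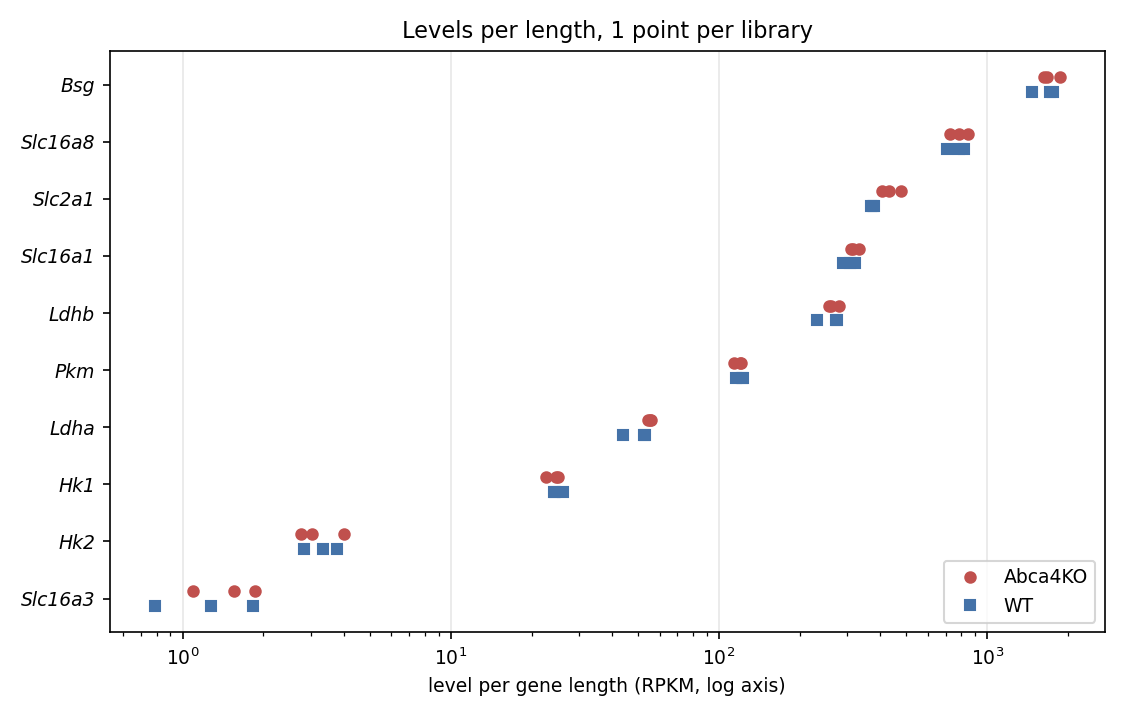
Level of each of the 10 genes per length (RPKM, log axis) in every library of Abca4KO and WT, with the genes ordered by their mean level. Bsg averaged 1684 RPKM and Slc16a3 1.40 RPKM, and the ranges of neighbouring genes over the 6 libraries do not overlap with these lengths.

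Slc2a1 encodes GLUT1, the glucose transporter through which the RPE takes up glucose and hands it on (chr4:119108711-119137983, plus strand, mm10). It held 1505, 1426 and 1670 CPM in Abca4KO libraries 1, 2 and 3, against 1311, 1293 and 1324 CPM in the WT libraries. Every Abca4KO library was above every WT library, the lowest Abca4KO value being that of replicate 2. The means were 1533 ± 124.4 CPM in Abca4KO and 1309 ± 15.4 CPM in WT (SD, n = 3 each), a 1.17-fold difference with a 95% interval from 1.01 to 1.35. On the log2 scale the difference was 0.23 (SE 0.09), and with an adjusted p of 0.701 by the quasi-likelihood test of edgeR it did not pass. Its direction was the same under each of the 18 other settings tried, with log2 fold changes from 0.15 to 0.28 and adjusted p-values from 0.344 to 0.981. Since the genotypes did not overlap, the settings that leave libraries out could hardly have reversed that direction. GLUT1 is also a glucose transporter of endothelial cells and red blood cells, and the summed endothelial markers were on average higher in Abca4KO. With the endothelial marker level as a covariate, the log2 fold change of Slc2a1 was 0.15 (adjusted p = 0.802, edgeR's quasi-likelihood test). That level was 5.45, 5.37 and 6.06 log2 CPM in Abca4KO and 4.89, 5.44 and 4.70 in WT. It thus followed genotype in part, and with 6 libraries this fit cannot cleanly separate the 2. The part of endothelial cells in the result was not tested. Without Abca4KO 3, the library with the highest Slc2a1 and the highest endothelial sum, the log2 fold change was 0.16 (adjusted p = 0.976, same test). Red blood cell markers summed to between 1092 and 2570 CPM in Abca4KO and between 1118 and 1781 CPM in WT, and their part in the result was not tested. The antisense gene Gm12868, which shares exon bases with Slc2a1, had a count equal to 0.625% of the Slc2a1 count.

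Hexokinase 1 and hexokinase 2 both phosphorylate glucose after it enters the cell. Hk1, the broadly expressed form (chr10:62268855-62379908, minus strand), held 214.4, 193.1 and 209.6 CPM in Abca4KO and 206.7, 209.1 and 222.8 CPM in WT. The groups overlapped, and the log2 fold change was -0.05 (SE 0.08, 95% interval -0.23 to 0.13, adjusted p = 0.929, edgeR's quasi-likelihood test). Its antisense gene Hk1os had a count equal to 1.25% of that of Hk1. Hk2, the form known from muscle and from photoreceptors (chr6:82725025-82774454, minus strand), held 23.9, 18.1 and 16.5 CPM in Abca4KO and 22.5, 16.9 and 19.9 CPM in WT. The libraries of the genotypes were interleaved, with a log2 fold change of -0.02 (95% interval -0.44 to 0.40, adjusted p = 0.988, same test). The 3 libraries with the most Hk2, Abca4KO 1, WT 1 and WT 3 in that order, were also the 3 with the highest mean of the rod markers, in the same order. Among the other 3 the orders differed: Abca4KO 3 had the lowest Hk2 with a rod mean of 5.32 log2 CPM, and WT 2 had more Hk2 with the lowest rod mean, 4.51. With the rod marker level as a covariate, the Abca4KO against WT log2 fold change of Hk2 was -0.12 (adjusted p = 0.812, edgeR's quasi-likelihood test). That fit concerns the genotypes only, and the part of rods in the level of Hk2 was not tested.

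Pyruvate kinase catalyses the last step of glycolysis, and Pkm encodes its M1 and M2 forms (chr9:59656368-59679375, plus strand). Pkm held 602.2, 568.0 and 597.4 CPM in Abca4KO and 608.5, 579.9 and 616.8 CPM in WT. The overlapping groups differed by a log2 fold change of -0.03 (SE 0.07, 95% interval -0.20 to 0.14, adjusted p = 0.961, edgeR's quasi-likelihood test). Counts per gene do not separate the M1 and M2 transcripts. The processed pseudogene Gm6560, with 957 counts over the 6 libraries, matches Pkm with 98.4% identity over the aligned bases. Reads may have been shared between them. AC160637.1, on the same strand, shares exon bases with Pkm and had a count equal to 1.57% of the Pkm count.

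**Figure D3:**
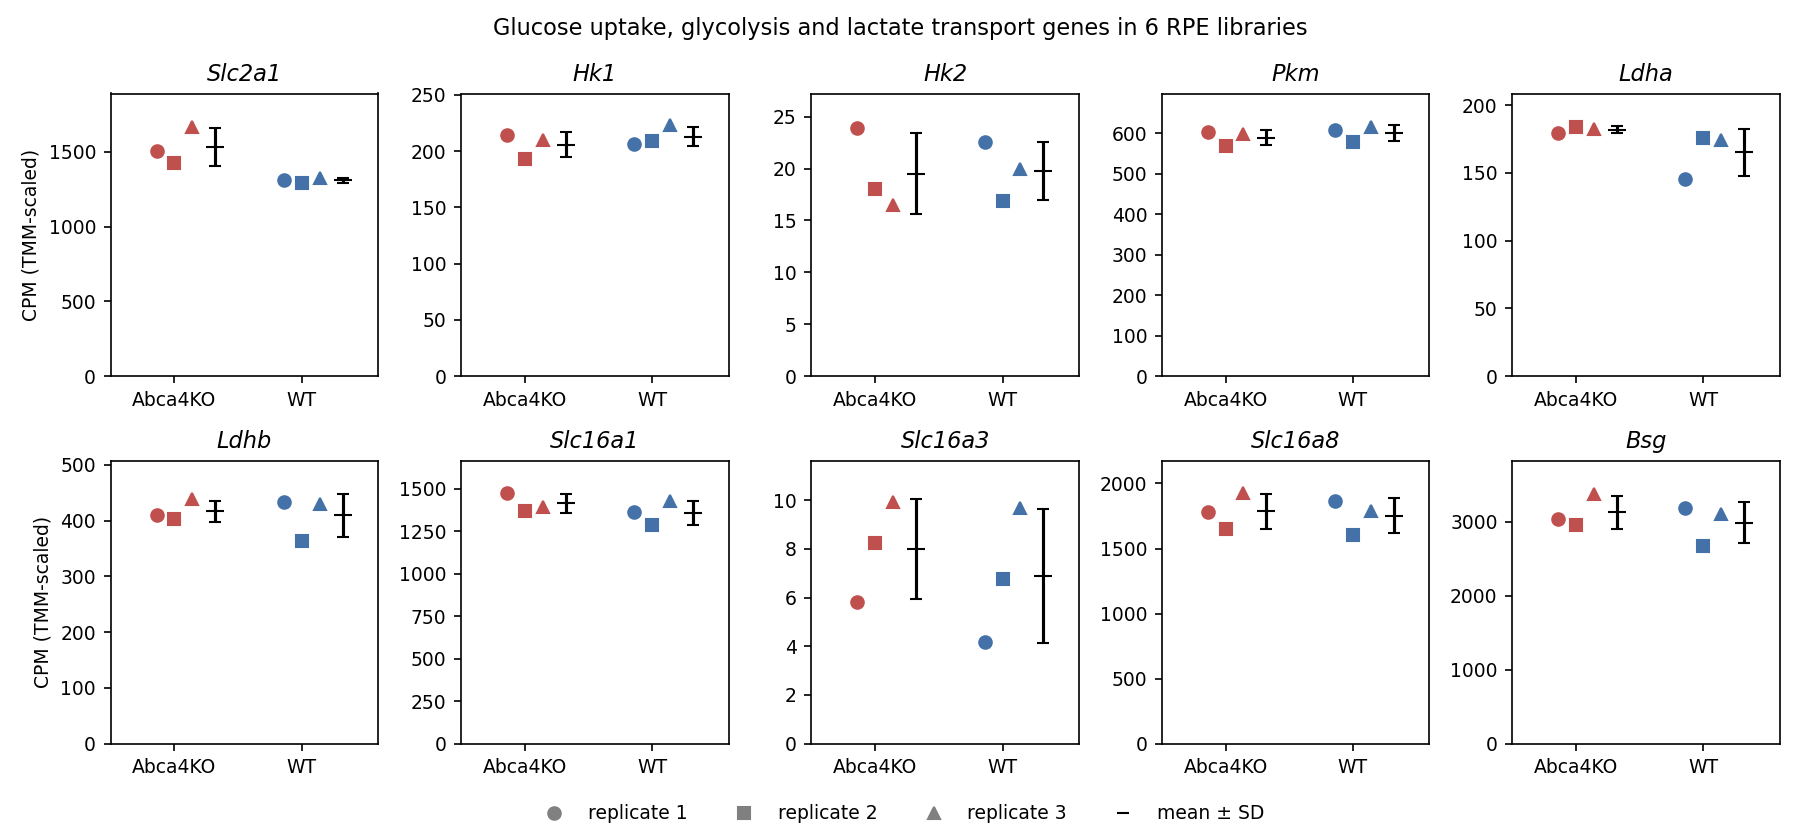
CPM of each of the 10 genes in every library (points, 1 panel per gene, Abca4KO left and WT right, vertical axes starting at 0), with horizontal bars for the means. In the panels of Slc2a1 and Ldha the 3 Abca4KO points all lie above the 3 WT points, from 1426 CPM upward and from 179.4 CPM upward, and in the other 8 panels the genotypes overlap.

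Lactate dehydrogenase is a tetramer of the A subunit, which is linked with making lactate, and the B subunit, which is linked with using it. Ldha (chr7:46841475-46855627, plus strand) held 179.4, 183.9 and 182.6 CPM in Abca4KO and 145.4, 175.6 and 174.1 CPM in WT. All Abca4KO libraries lay above all WT libraries, while WT 1 stood below the other two. The means were 182.0 ± 2.30 CPM in Abca4KO and 165.1 ± 17.0 CPM in WT (SD, n = 3 each), with a log2 fold change of 0.14 (SE 0.09, 95% interval -0.07 to 0.35, adjusted p = 0.809, edgeR's quasi-likelihood test). Without WT 1 the log2 fold change was 0.06. Ldhb (chr6:142490249-142507957, minus strand) held 410.4, 402.1 and 438.2 CPM in Abca4KO and 433.4, 364.2 and 430.1 CPM in WT. These groups overlapped, with a log2 fold change of 0.03 (adjusted p = 0.975, same test). Per length, the B subunit transcript exceeded the A subunit transcript 4.82-, 4.61- and 5.06-fold in Abca4KO and 6.28-, 4.37- and 5.21-fold in WT. With the longest transcripts as lengths the ratio was 3.18, 3.04 and 3.34 in Abca4KO and 4.15, 2.89 and 3.44 in WT. The B subunit transcript was thus the more abundant in every library under either length, and the ratios of the genotypes overlapped. An exact permutation test of the ratio gave p = 0.6 (2-sided, adjusted over the 4 ratios compared 0.8). With 3 libraries against 3 the smallest p this test can give is 0.1. The test could therefore not pass the threshold whatever the ratios were, and no conclusion is drawn from it. Of the copies found, the pseudogene Gm5514 matches Ldhb with 98.0% identity but had a count of 43 over the 6 libraries, and 4 pseudogenes similar to Ldha had 9 counts in all.

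MCT1, MCT3 and MCT4, the products of Slc16a1, Slc16a8 and Slc16a3, carry lactate together with a proton. Slc16a1 (chr3:104638668-104658462, plus strand) held 1475, 1371 and 1394 CPM in Abca4KO and 1360, 1288 and 1428 CPM in WT. The groups overlapped, with a log2 fold change of 0.06 (SE 0.08, 95% interval -0.14 to 0.25, adjusted p = 0.924, edgeR's quasi-likelihood test). Slc16a1 lies on the chromosome of the disrupted gene, 17.4 Mb from Abca4, and sequence linked to the disrupted gene was not examined. Slc16a8, the carrier of the choroidal face of the RPE (chr15:79251014-79254761, minus strand), held 1784, 1653 and 1924 CPM in Abca4KO and 1863, 1606 and 1790 CPM in WT. Its log2 fold change was 0.03 (SE 0.10, 95% interval -0.21 to 0.26, adjusted p = 0.976, same test), with the genotypes interleaved. Slc16a3, the carrier typical of strongly glycolytic cells (chr11:120948480-120960868, plus strand), held 5.84, 8.26 and 9.94 CPM in Abca4KO and 4.19, 6.76 and 9.69 CPM in WT. Its 95% interval was wide, from -0.58 to 1.02 around a log2 fold change of 0.22 (adjusted p = 0.929, same test), and neither direction was excluded.

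The balance among the carriers and among the hexokinases was followed in the same way. Slc16a8 exceeded Slc16a1 per length 2.35-, 2.34- and 2.68-fold in Abca4KO and 2.66-, 2.42- and 2.44-fold in WT. The corresponding ratio of Slc16a3 to Slc16a1 was 0.00329, 0.00501 and 0.00593 in Abca4KO and 0.00256, 0.00437 and 0.00565 in WT. Hexokinase 2 to hexokinase 1 was 0.159, 0.134 and 0.113 in Abca4KO and 0.156, 0.115 and 0.128 in WT. The genotypes overlapped for each of these 3 ratios. In the same order, exact permutation tests gave p = 0.6, 0.6 and 0.9, and 0.8, 0.8 and 0.9 after adjustment over the 4 ratios. As for Ldhb to Ldha, no p under 0.1 was possible, so these tests could not pass the threshold and decide nothing.

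**Figure D4:**
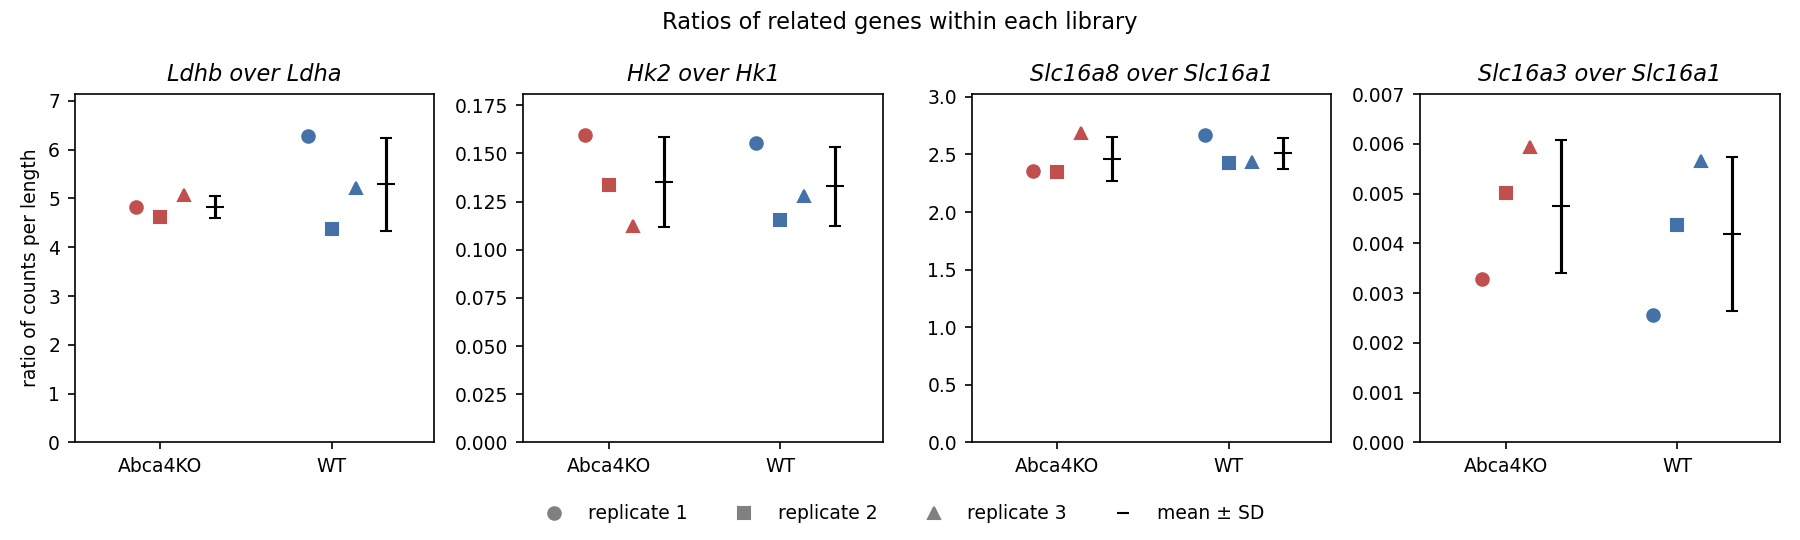
Ratios between related transcripts per length in each library, Abca4KO left and WT right, with bars for the means. With the gene lengths of the deposited table, Ldhb exceeded Ldha more than 4-fold and Slc16a8 exceeded Slc16a1 more than 2-fold in all 6 libraries, while Hk2 and Slc16a3 stayed below their partners, and the genotypes overlap in every panel.

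Bsg encodes basigin (CD147), without which MCT1, MCT3 and MCT4 are not held at the membrane (chr10:79704491-79711969, plus strand). It held 3042, 2956 and 3375 CPM in Abca4KO and 3183, 2665 and 3109 CPM in WT. The genotypes overlapped, with the lowest value in WT 2 and the highest in Abca4KO 3. The log2 fold change was 0.07 (SE 0.11, 95% interval -0.19 to 0.32, adjusted p = 0.931, edgeR's quasi-likelihood test). Neither an overlapping gene nor a similar transcript was found for Bsg. WT 2 was also the lowest and Abca4KO 3 the highest library for Slc2a1, Slc16a8, Ldhb and the sum of the 10 genes, though not for the rest of the 10. WT 2 had the lowest mean of the RPE markers as well, 9.73 log2 CPM. The pattern was therefore not particular to Bsg and Slc2a1, and its cause was not tested.

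The rest of the pathway was described with 8 lists of 123 symbols, of which 112 were tested, and none of the 112 passed the adjusted threshold by edgeR's quasi-likelihood test (lowest adjusted p = 0.616), nor by DESeq2 or limma-voom. At an unadjusted p under 0.05, 2 were higher and 8 lower, set beside 3.15% and 3.87% of all tested genes. The 112 log2 fold changes were positive for 45 genes and negative for 67, with a median of -0.02. Genotypes did not overlap for 16 of the 112, with Abca4KO above in 9 and below in 7, where 6.85% of all tested genes had every Abca4KO library below WT.

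Of the other glucose transporters, 10 of 12 were tested, 3 on the positive and 7 on the negative side, and their median log2 fold change was -0.15. Slc2a12, which encodes GLUT12, averaged 173.1 ± 18.3 CPM in Abca4KO and 214.1 ± 32.3 CPM in WT (SD, n = 3 each), a log2 fold change of -0.31 (adjusted p = 0.706, edgeR's quasi-likelihood test). Its count is uncertain, since Tbpl1 on the opposite strand shares exon bases and had 23.0% as many counts. Without WT 3 its log2 fold change was -0.20, and with the endothelial covariate, which followed genotype in part, it was -0.065. Slc2a3, the neuronal transporter GLUT3, held 6.95, 6.40 and 6.10 CPM in Abca4KO and 6.39, 11.8 and 6.86 CPM in WT. WT 2 alone stood high, and without it the log2 fold change of Slc2a3 was -0.030 in place of -0.36. WT 2 was also the library with the highest sum of the 11 macrophage and microglia markers, which lay between 1019 and 1452 CPM in Abca4KO and between 863 and 1614 CPM in WT, and their part in the result was not tested.

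Of the other glycolytic enzymes, 21 of 24 were tested, 9 on the positive and 12 on the negative side (median log2 fold change -0.01), with 1 gene in each direction at an unadjusted p under 0.05. Eno2, the neuronal enolase, held 53.5, 54.5 and 59.2 CPM in Abca4KO and 46.9, 40.6 and 46.5 CPM in WT. All Abca4KO values were above those of WT, with a log2 fold change of 0.32 (adjusted p = 0.616, edgeR's quasi-likelihood test). Rod markers were on average higher in Abca4KO as well, and the part of photoreceptors in the Eno2 result was not tested. Pfkl, the liver-type subunit of phosphofructokinase, averaged 250.6 ± 26.0 CPM in Abca4KO and 306.9 ± 27.6 CPM in WT (SD, n = 3 each), a difference of -0.29 on the log2 scale (adjusted p = 0.688, same test). Tpi1, triose phosphate isomerase, and Bpgm, which makes 2,3-bisphosphoglycerate, had log2 fold changes of 0.18 and 0.15.

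Of the other genes of lactate and monocarboxylate transport, 14 of 16 were tested, 7 positive and 7 negative, with a median of -0.03. Slc16a6, which carries ketone bodies, had a log2 fold change of -0.26, and its count cannot be told apart from those of Arsg and Amz2 on the opposite strand, which had 201% and 44.1% as many counts. Emb encodes embigin, which is also a partner protein of monocarboxylate carriers. Emb averaged 50.4 CPM in Abca4KO and 36.1 CPM in WT, with overlapping groups (log2 fold change 0.48, adjusted p = 0.718, edgeR's quasi-likelihood test). Its log2 fold change was 0.32 without Abca4KO 2 and 0.74 without WT 2.

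All 15 genes of pyruvate entry and pyruvate dehydrogenase were tested, 7 positive and 8 negative, with a median of -0.01. Pdk3, a kinase that inhibits pyruvate dehydrogenase, averaged 26.4 CPM in Abca4KO and 31.7 CPM in WT (log2 fold change -0.26, adjusted p = 0.706, edgeR's quasi-likelihood test). Pdpr, a regulatory subunit of the phosphatase that acts against these kinases, had a log2 fold change of -0.36, and its count of 3219 is uncertain beside the 645 of an overlapping gene on the opposite strand. The 12 tested genes of glycogen and gluconeogenesis (of 15) had a median log2 fold change of -0.01, and the 8 of the pentose phosphate pathway a median of 0.01. Ugp2, which makes UDP-glucose for glycogen, averaged 104.7 CPM in Abca4KO and 90.6 CPM in WT, a log2 fold change of 0.21 that was 0.13 without WT 2. G6pdx, the first enzyme of the pentose phosphate pathway, held 67.1, 71.9 and 70.6 CPM in Abca4KO and 78.1, 103.7 and 72.4 CPM in WT, with 66.3% as many counts in Ikbkg on the opposite strand. WT 2 was again the highest, and the log2 fold change of G6pdx was -0.28 with it and -0.11 without it.

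Of the 19 regulators of glucose use, 4 lay on the positive and 15 on the negative side (median log2 fold change -0.07). Mlxipl, the carbohydrate-response factor ChREBP, held 9.39, 8.82 and 8.60 CPM in Abca4KO and 6.39, 5.53 and 6.26 CPM in WT. These libraries did not overlap, with a log2 fold change of 0.56 (adjusted p = 0.616, edgeR's quasi-likelihood test). Txnip, a ChREBP target whose product restrains GLUT1 at the cell surface, held 151, 190 and 185 CPM in Abca4KO and 212, 296 and 197 CPM in WT. Here every Abca4KO library lay below WT, with a log2 fold change of -0.42 (adjusted p = 0.701, same test). Like Slc16a1, Txnip lies on chromosome 3 with Abca4, and sequence linked to the disrupted gene was not examined. Without WT 2, its highest library, the log2 fold change of Txnip was -0.22. Prkaa2, a catalytic subunit of the energy sensor AMPK, averaged 45.0 CPM in Abca4KO and 59.1 CPM in WT, a log2 fold change of -0.39 that was -0.26 without WT 3. The 13 tested targets of hypoxia-inducible factor outside glycolysis, of 14 listed, split into 7 positive and 6 negative with a median of 0.01. Vegfa was one of them, at 678.6 ± 57.9 CPM in Abca4KO and 650.9 ± 96.0 CPM in WT (SD, n = 3 each). It falls outside the rule for named genes and was chosen after its values were seen.

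**Figure D5:**
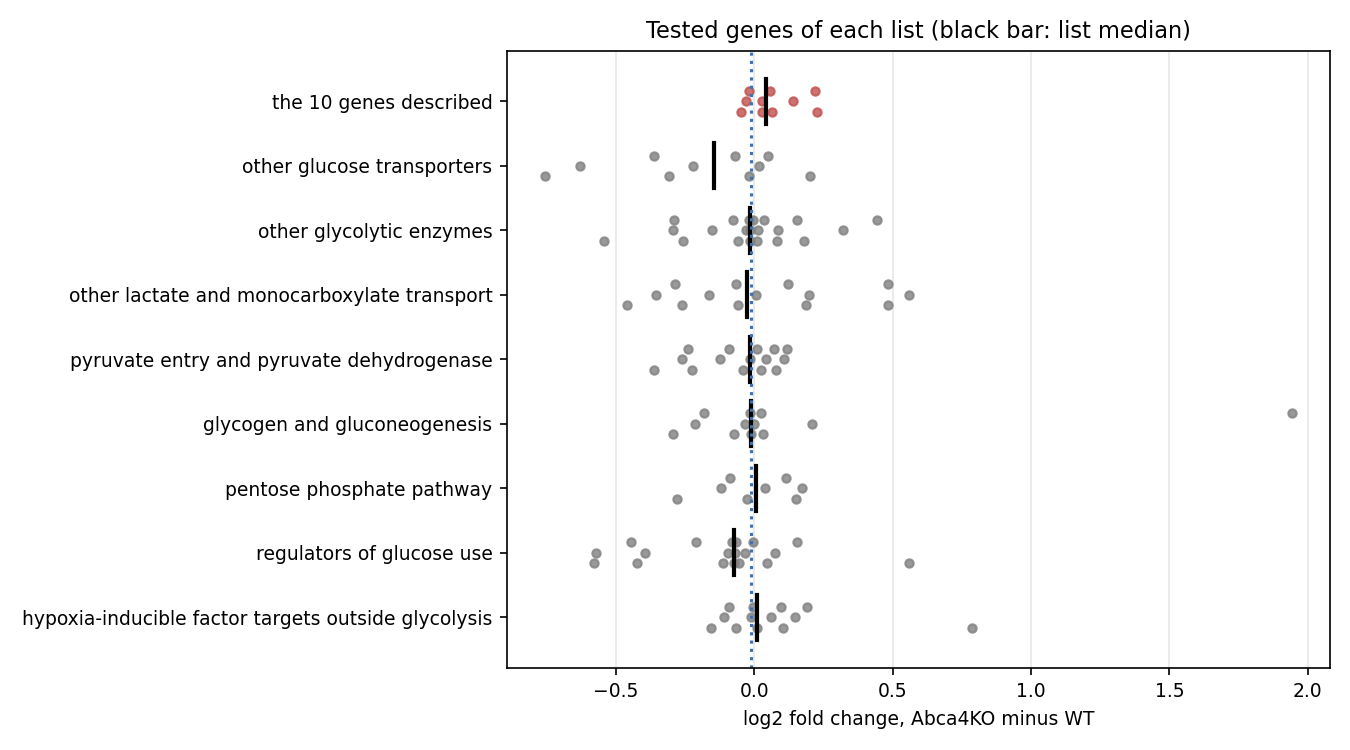
Log2 fold changes (Abca4KO minus WT) of the tested genes of the 8 pathway lists and of the 10 genes described first, 1 point per gene, with lines for the medians. The medians run from -0.15 for the other glucose transporters to 0.04 for the 10 genes, and no point passed the adjusted threshold.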

How the data were processed

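RNA from the RPE of 3 Abca4KO and 3 WT mice was sequenced, with 1 mouse behind each library per the series design. The authors deposited raw counts for each gene, as whole numbers without normalization. The submitters' processing notes name STAR, HTSeq and mm10 and no versions. The strand setting of the counting is not given in those notes or the labels. Gene positions and strands equalled those of GENCODE M21 for 98.33% of the 54495 identifiers found in both. Without stated strand use, overlapping genes on opposite strands cannot be told apart. Coordinates and gene lengths are those of the deposited table.

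The 17340 genes kept by filterByExpr (edgeR 4.0.16 in R 4.3.3, minimum count 10) were scaled by TMM and tested 2-sided by the quasi-likelihood method of edgeR in all 6 libraries, with Benjamini-Hochberg adjustment over these genes and a threshold of 0.05. Intervals are 95% intervals of that fit, and the SE was taken from the log2 fold change and the root of its F statistic. RPKM divides CPM by the gene length. For markers, log2 CPM (prior count 1) was averaged over each list. The script was tested on simulated counts. The pair of libraries most alike had a chi-square per degree of freedom of 9.97, so no library was a copy of another. Reads carry no molecular identifiers, so the floor of 3 counts covers counting error only.

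Similar transcripts were searched with BLAST 2.17.0 (at least 95% identity over 150 bases). Alternatives were DESeq2 1.42.0, limma-voom (limma 3.58.1), other scalings and filters, a replicate block, rod and endothelial marker covariates and each library left out. A fit without both WT 2 and Abca4KO 1, and levels per longest GENCODE M21 transcript, were chosen after seeing the data. The members and lists were chosen with earlier results of these data known. Of each list, up to 4 genes with the smallest p-values could be named.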

Additional observations from a re-analysis of the deposited data

How the results depend on the processing

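None of the 10 genes passed the threshold in any of the 18 alternatives, and the median of all genes stayed between -0.02 and 0.01 on the log2 scale. Slc2a1, Ldha, Hk1 and Pkm kept their direction in all 18. For Slc2a1 and Ldha, whose libraries did not overlap between genotypes, leaving libraries out could hardly have reversed it. Slc2a1 lost its unadjusted p under 0.05 with the endothelial covariate and without Abca4KO 1, Abca4KO 3, WT 1, WT 2, WT 3 or both WT 2 and Abca4KO 1, at values up to 0.311, and with DESeq2 its unadjusted p was 0.00998. After the mean of each genotype was taken out, same-numbered libraries correlated at 0.167, 0.344 and -0.08. Only replicate 2 correlated best with its own number. With 3 libraries per genotype these correlations cannot decide whether the replicate numbers pair the samples. With the replicate block, Slc2a1 had a log2 fold change of 0.22 (adjusted p = 0.646, edgeR), no member was called and 9 genes passed over all genes, against 8. With the endothelial covariate Hk2 was at 0.25 and H6pd at -0.0756. Leaving out each library in turn gave log2 fold changes from -0.19 to 0.0863 for Hk2, -0.0506 to 0.0705 for Ldhb, -0.0313 to 0.0822 for Slc16a8, -0.0392 to 0.55 for Slc16a3, -0.00981 to 0.11 for Bsg, -1.17 to 0.16 for Slc2a6 and -0.17 to 0.0179 for Pgd. The same gave log2 differences of the ratios from -0.24 to 0.0168 for Ldhb to Ldha, -0.105 to 0.15 for Hk2 to Hk1, -0.0935 to 0.0146 for Slc16a8 to Slc16a1 and -0.11 to 0.46 for Slc16a3 to Slc16a1. Without both WT 2 and Abca4KO 1, Ldhb was at -0.0528, Slc16a1 at -0.0252, Slc16a8 at -0.0434, Bsg at -0.00408, Slc2a6 at 0.39 and Pgd at 0.0749, and 1 glycolytic enzyme, Hk3, named after its values were seen, passed (log2 fold change 1.24, adjusted p = 0.0471, edgeR). The count over all genes was 19 without a filter, 22 with the rod covariate, 1 with the endothelial covariate, 114 by DESeq2, 3 to 11 with single libraries left out and 190 without both libraries. Taking the longest transcript as length left the log2 differences of the ratios as they were. The cause of these shifts was not tested. With 3 libraries per genotype, differences in the members within their intervals were not detectable at this depth.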

Other observations

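Gapdh and Aldoa were chosen after their values were seen. Gapdh held 5.89, 5.68 and 6.57 CPM in Abca4KO and 7.12, 4.56 and 6.31 CPM in WT, while Aldoa, the aldolase upstream of it in glycolysis, held 1523, 1523 and 1620 CPM in Abca4KO and 1577, 1389 and 1587 CPM in WT. The Gapdh transcripts match 133 annotated pseudogenes at 95% identity or more, and the gene shares exon bases with Iffo1 on the opposite strand, which had 4384 counts beside 676 for Gapdh over the 6 libraries. The deposited Gapdh count is therefore uncertain and should not be read as the level of the transcript.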
